A study of Mus musculus with 6 samples.

Results

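The insulin-like growth factor (IGF) system was described in mouse lung endothelial cells (ECs) as 10 genes of the 24063 gene symbols in the deposited counts. The genes were the ligands Igf1 and Igf2, the receptors Igf1r and Igf2r, and the binding proteins Igfbp2, Igfbp3, Igfbp4, Igfbp5, Igfbp6 and Igfbp7, chosen as named parts of the system with earlier results of these data known. All 10 passed the filter on low counts. Bulk RNAseq compared ECs of sham-operated C57BL6 mice, which had a thoracotomy with both lungs left in place, with ECs collected 7 days after left unilateral pneumonectomy (PNX), after which the remaining lung grows. Each group had 3 libraries, and each library was pooled from 2 mice. The labels give male mice 8 weeks old, whereas the methods give an older age at surgery. Both groups were of the C57BL6 strain. The cells were taken from digested lung with anti-CD31 magnetic beads, which enrich ECs and leave some other cells.

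IGF1 and IGF2 are small secreted proteins that resemble insulin and promote growth and survival of many cell types. Both act through the receptor tyrosine kinase IGF1R, whereas IGF2R binds IGF2 and carries it to lysosomes without kinase signaling. The binding proteins hold the ligands outside the cell, and proteases that cut the binding proteins release the ligands again. Growth hormone is the main inducer of Igf1 in the liver, and in the lung stromal cells and macrophages are known to make it.

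Libraries 1 and 2 of each group came from an earlier deposit by the same laboratory, and library 3 from the later one. Total counts were 65763553 to 81282871 in the earlier libraries and 29526989 and 33374216 in the later ones. Libraries 1 and 2 of a group differed little beyond counting error, with a chi-square per degree of freedom of 1.75 in sham and 1.57 in PNX, against 67.9 to 86.4 for pairs with library 3. They were therefore summed to 1 sample, which gave 2 samples per group. Whether libraries 1 and 2 came from separate mice was not tested. The replicate number, which is also the deposit, paired the groups, so the fit with a replicate block stands beside the fit without it. The threshold for a call was that of the study's methods, an adjusted p below 0.01 together with a log2 fold change beyond 1 in either direction. Levels are given as CPM (counts scaled to library size) after TMM scaling, or as TPM, which also corrects for transcript length. The 10 EC markers examined, such as Pecam1 and Cdh5, were all well above 0 and summed to 8119 to 11007 CPM per library, while 8 markers of alveolar type 2 cells summed to 2154 to 5971 CPM. RNA of epithelial marker genes was thus present in all 6 libraries beside that of EC markers. These sums are not corrected for transcript number or length and do not give the share of each cell type.

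Igf1, the main circulating ligand, had the largest difference of the 10 genes. Igf1 was at 36.5, 36.0 and 37.7 CPM in the 3 sham libraries and at 154, 157 and 117 CPM in the 3 PNX libraries. All PNX libraries lay above all sham libraries, and the later PNX library was the lowest of its group. The 2 samples per group averaged 37.0 ± 0.991 and 136 ± 26.9 CPM (SD). Without the block the log2 fold change of Igf1 was 1.88 (SE 0.19), with an edgeR adjusted p of 0.074, which misses the threshold. With the replicate block Igf1 rose 3.67-fold (log2 1.88, SE 0.12, edgeR adjusted p = 8.2e-05). The difference was present within each deposit, at 4.23-fold in the earlier one (95% exact interval 3.98 to 4.50) and 3.16-fold in the later one (2.77 to 3.62). These intervals used the transcript with the highest counts and cover counting error only.

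The gene lies on chr10:87858265-87937042 (GRCm38, plus strand), where GENCODE also places the antisense RNA Igf1os. RefSeq transcripts of Igf1 numbered 5 in the counts, and 4 of them nearly share their sequence. They differ by 2 alternative leader exons and by a coding exon of 52 bases at chr10:87915298-87915349 that is spliced in or out. Since 52 is not a multiple of 3, the exon changes the reading frame of what follows and so the end of the IGF1 precursor, called the E peptide. The RNA around this exon is shown for both forms to make plain how little sequence tells them apart, with the exon in capitals and 20 bases of the exons on either side in lower case.
Igf1 with the exon: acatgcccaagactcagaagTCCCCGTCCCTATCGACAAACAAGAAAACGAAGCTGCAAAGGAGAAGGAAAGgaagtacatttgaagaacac
Igf1 without the exon: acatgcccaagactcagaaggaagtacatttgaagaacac
Sharing a leader exon, the transcripts NM_010512, which holds the exon, and NM_001111275, which lacks it, had the same count in 5 of 6 libraries (703 in the first sham library, for example). They differed in the first PNX library alone, at 2743 and 2739. A read on sequence that transcripts share was thus counted on each of them, and the counts do not separate the 2 forms. The CPM of Igf1 above adds its 5 transcripts and so such reads enter it repeatedly, in sham as in PNX. The fifth transcript, NM_184052, is only 1087 bases long. Its count was 18.8%, 20.03% and 31.1% of that of NM_010512 in sham and 27.1%, 26.1% and 31.0% in PNX. The groups overlapped through the third sham library. In the earlier deposit the PNX shares were higher, and in the later deposit the shares were nearly equal.

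**Figure D1:**
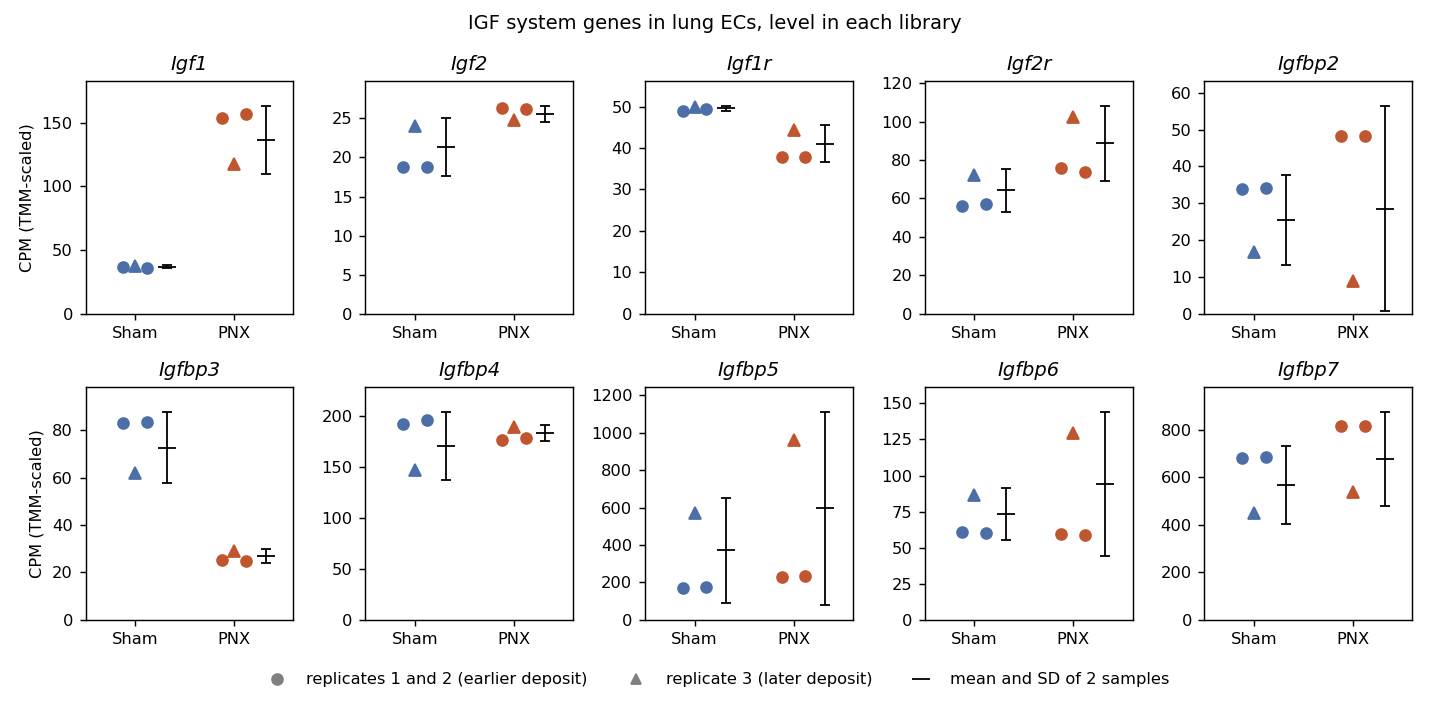
Level of each IGF system gene in each library, in CPM after TMM scaling (vertical axes start at 0 and differ between panels), for sham (blue) and PNX (red). Circles are replicates 1 and 2 of the earlier deposit, triangles replicate 3 of the later one, and bars the mean and SD of 2 samples per group; Igf1 libraries sit between 36.0 and 37.7 CPM in sham and between 117 and 157 CPM in PNX.

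Igf2, the ligand best known from fetal growth, differed less. Igf2 was at 18.8, 18.7 and 24.0 CPM in sham and at 26.4, 26.2 and 24.8 CPM in PNX. This CPM adds 3 transcripts with near-equal counts (498, 495 and 500 in the first sham library). Shared reads thus enter it repeatedly, as for Igf1. The PNX libraries all lay above the sham libraries, but in the later deposit the gap was narrow. The log2 fold change was 0.26 (SE 0.18, edgeR adjusted p = 0.65) without the block and 0.28 (SE 0.12, adjusted p = 0.15) with it. The count ratio was 1.40 (1.28 to 1.52) in the earlier deposit and 1.04 (0.873 to 1.24) in the later one. Igf2 lies on chr7:142650766-142666816 (minus strand) and overlaps Mir483, Gm49394 and the antisense RNA Igf2os in the annotation.

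The 2 receptors differed between sham and PNX by small amounts and in opposite directions. Igf1r, the signaling receptor of both ligands, was at 49.0, 49.3 and 49.96 CPM in sham and at 37.8, 37.9 and 44.2 CPM in PNX. All PNX libraries lay below all sham libraries. The log2 fold change of Igf1r was −0.27 (SE 0.14, edgeR adjusted p = 0.55) without the block and −0.28 (SE 0.09, adjusted p = 0.065) with it, so neither fit passed. Igf2r, which clears IGF2, was at 55.9, 56.9 and 72.1 CPM in sham and at 75.9, 73.8 and 102 CPM in PNX. The groups did not overlap, and both later libraries were the highest of their group. Without the block its log2 fold change was 0.47 (SE 0.22, adjusted p = 0.50), and with the block Igf2r rose 1.37-fold (log2 0.46, SE 0.08, edgeR adjusted p = 0.0081), below the fold that a call needs. The ratio was 1.33 (1.29 to 1.37) in the earlier and 1.42 (1.35 to 1.499) in the later deposit. Igf1r lies on chr7:67952827-68233668 with no overlapping gene, and Igf2r on chr17:12682406-12769664, where the imprinted antisense RNA Airn overlaps it.

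Igfbp3, the main carrier of IGFs in blood, was the one binding protein called with the replicate block. Igfbp3 was at 83.1, 83.4 and 62.0 CPM in sham and at 25.2, 24.6 and 29.0 CPM in PNX. All PNX libraries lay far below the lowest sham library. The sample means were 72.6 ± 15.1 and 27.0 ± 2.88 CPM (SD, n = 2). The log2 fold change of Igfbp3 was −1.43 (SE 0.20, edgeR adjusted p = 0.093) without the block, and with the block Igfbp3 fell 2.70-fold (log2 −1.43, SE 0.15, edgeR adjusted p = 8.4e-04). The PNX to sham ratio was 0.299 (0.288 to 0.311) in the earlier and 0.468 (0.432 to 0.507) in the later deposit. The gene, on chr11:7206086-7213923 (minus strand), overlaps no other gene and has 1 counted transcript.

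Igfbp5, which binds to extracellular matrix and is made by many stromal cells, differed more between deposits than between sham and PNX. Igfbp5 was at 172, 175 and 570.1 CPM in sham and at 230.2, 235 and 959.9 CPM in PNX. The later library was the highest by a wide margin in both groups, so sham and PNX overlapped. Within each deposit PNX was higher, by 1.34-fold (1.32 to 1.36) and 1.68-fold (1.65 to 1.71). With the replicate block Igfbp5 rose 1.502-fold (log2 0.59, SE 0.11, edgeR adjusted p = 0.012), whereas without it the log2 fold change of 0.68 (SE 0.85) had an adjusted p of 0.83.

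Igfbp2, which binds IGF2 tightly, went in opposite directions in the deposits. Igfbp2 was at 33.8, 34.1 and 16.7 CPM in sham and at 48.3, 48.2 and 8.84 CPM in PNX. It was higher after PNX in the earlier deposit, at a ratio of 1.42 (1.37 to 1.47), and lower in the later one, at 0.531 (0.457 to 0.616). The blocked log2 fold change of −0.10 (SE 0.28, edgeR adjusted p = 0.83) lies between the values of the deposits. Markers of alveolar type 1 cells were also low in the later libraries, and 7 such genes summed to 2278 CPM in the later sham library and 1145 CPM in the later PNX library, against 3994 to 5490 CPM in the earlier libraries. Their part in the Igfbp2 levels was not tested.

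Igfbp4 also differed in sign between deposits, and so did Igfbp6, though its earlier difference was within counting error. Igfbp4, which mainly inhibits IGF action, was at 192, 195 and 147 CPM in sham and at 177, 178 and 189 CPM in PNX. Its count ratio was 0.914 (0.899 to 0.930) in the earlier and 1.29 (1.24 to 1.34) in the later deposit. Igfbp6, which prefers IGF2, was at 61.0, 60.0 and 86.3 CPM in sham and at 59.4, 58.5 and 129 CPM in PNX. The ratio of Igfbp6 was 0.974 (0.946 to 1.004) and 1.5 (1.43 to 1.57), so the earlier interval included 1. Of all genes, 15.9% changed sign between deposits with the earlier libraries of the groups not overlapping. Over both deposits neither gene passed with the block, at edgeR adjusted p of 0.56 for Igfbp4 and 0.22 for Igfbp6. In a fit of replicates 1 and 2 alone, Igfbp4 had a log2 fold change of −0.10, below the fold that a call needs. That fit takes these near-equal libraries as independent, so its p-values reflect little beyond counting error.

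Igfbp7, a secreted relative with low affinity for IGFs that is abundant in blood vessels, was at 680.2, 686 and 451 CPM in sham and at 816, 819 and 537 CPM in PNX. The later libraries were the lowest of each group, and the groups overlapped. Within the deposits the ratios were alike, at 1.20 (1.18 to 1.21) and 1.19 (1.16 to 1.23). The blocked log2 fold change was 0.26 (SE 0.10, edgeR adjusted p = 0.11). Igfbp7 has 2 counted transcripts and overlaps Polr2b and Gm34648 on the opposite strand. The 2 transcripts had near-equal counts (27070 and 27067 in the first sham library), so shared reads enter its CPM repeatedly.

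**Figure D2:**
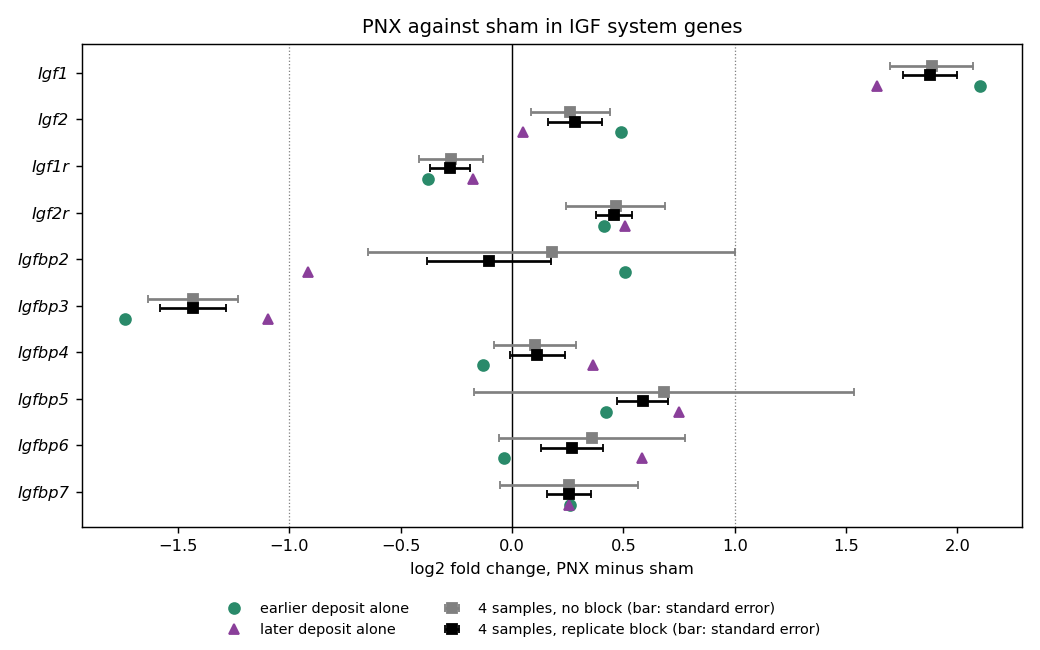
Log2 fold change of PNX over sham (horizontal axis) for the 10 IGF system genes, from 4 samples without block (grey squares) and with the replicate block (black squares), bars being 1 standard error, and from each deposit alone (green circles, purple triangles). Dotted lines mark a log2 fold change of 1 in either direction, and Igf1 at 1.88 and Igfbp3 at −1.43 lie beyond them. The deposits disagree in sign for Igfbp2, Igfbp4 and Igfbp6, with the earlier Igfbp6 value at only −0.037.

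Over the 10 genes, edgeR without the block called 0, as it did among all 16598 genes tested (0%). At an unadjusted p under 0.05 that fit had 2 of the 10, Igf1 and Igfbp3, against 12.5% of all genes. DESeq2 on the same 4 samples called Igf1 and Igfbp3 (3.35% of all genes), and limma-voom called 0. With the replicate block edgeR called the same 2 genes, against 5.12% of all genes tested (3.89% higher and 1.23% lower). At an adjusted p under 0.05 with the block, 4 passed, with Igf1, Igf2r and Igfbp5 higher and Igfbp3 lower, against 21.6% of all genes (11.5% higher and 10.1% lower). In 5 of the 10 the 3 PNX libraries did not overlap the 3 sham libraries, 3 higher and 2 lower, against 36.5% of all genes (18.6% above and 17.9% below). The median blocked log2 fold change was 0.26 over the 10 genes and −0.01 over all genes. The block left 1 residual degree of freedom. The fits borrow information on spread from the other genes tested, so their small p-values do not measure the spread between these few samples alone. In the 6-library fit without summing, edgeR gave adjusted p of 0.0013 for Igf1 and 0.0024 for Igfbp3 (called genes 2.51% of all), but it treats the near-equal libraries 1 and 2 as independent.

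To compare levels between genes, the deposited TPM of the most counted transcript of each gene was used. For Igf1 this was NM_010512. The short transcript NM_184052 had a higher TPM, at 3.82, 4.03 and 6.33 in sham and at 22.7, 22.6 and 19.9 in PNX. The place of Igf1 in the orders below thus depends on the transcript used. Binding proteins were far more abundant than ligands. In sham the order of mean TPM was Igfbp7 (586), Igfbp4 (207), Igfbp5 (159), Igfbp6 (143), Igfbp3 (74.5), Igfbp2 (47.8), Igf2r (18.0), Igf1r (10.4), Igf2 (4.45) and Igf1 (3.10). Among neighbours in that order, the 2 samples overlapped for Igfbp4 and Igfbp5, Igfbp5 and Igfbp6, and Igfbp3 and Igfbp2. After PNX, Igf1 stood at 11.4 ± 2.27 TPM (SD, n = 2), rank 8 of 10 and above Igf1r (8.56 ± 0.989) and Igf2 (5.31 ± 0.152), while Igfbp3 stood at 27.6 ± 3.12 TPM, rank 6 behind Igfbp2. The PNX samples overlapped for Igfbp5 and Igfbp4, Igfbp4 and Igfbp6, Igfbp2 and Igfbp3, and Igfbp3 and Igf2r.

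Igf1 made up 44.4%, 44.0% and 38.3% of the summed TPM of the 2 ligands in sham and 70.2%, 71.1% and 65.4% in PNX. The summed TPM of the 6 binding proteins per TPM of ligand was 182, 184 and 142 in sham and 75.3, 74.3 and 99.6 in PNX. Neither ratio overlapped between the groups. The sum of the binding proteins itself was 1275, 1283 and 1154 TPM in sham and 1377, 1383 and 1495 TPM in PNX, so it was not lower after PNX. Within that sum, Igfbp3 took 5.53% to 6.68% in sham and 1.82% to 1.99% in PNX, while Igfbp7 took 55.0%, 55.1% and 40.5% in sham and 60.7%, 60.8% and 37.2% in PNX. These ratios compare RNA and not protein, and they come from the same values as the fold changes above. Those with Igf1 also depend on the transcript used.

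**Figure D3:**
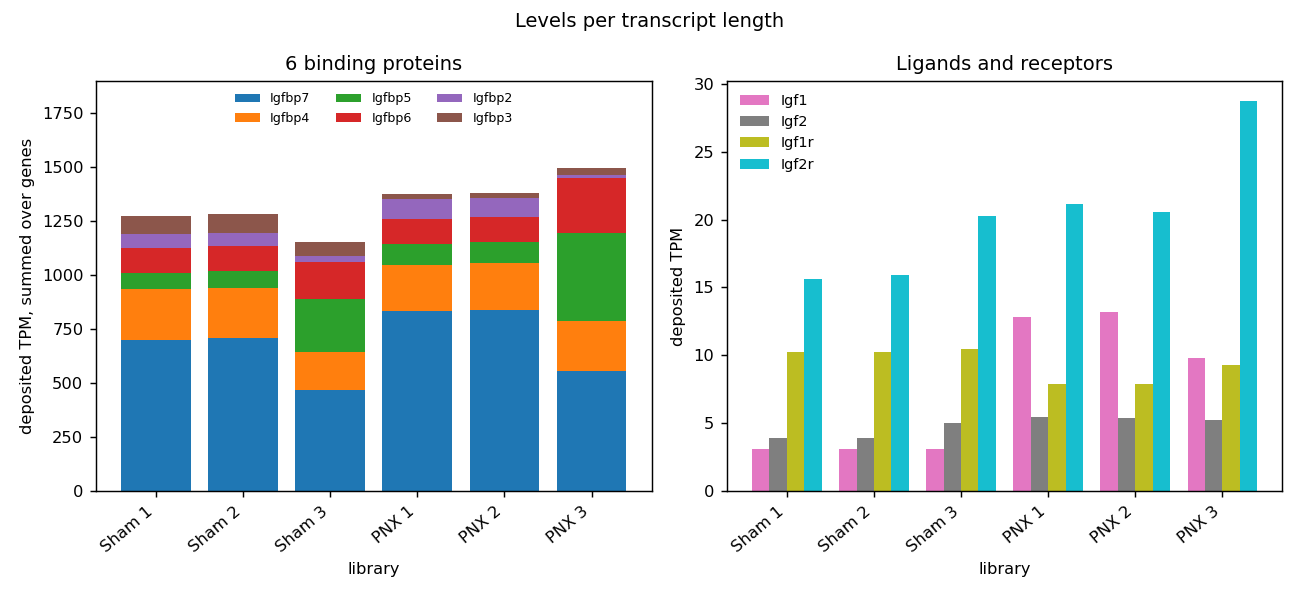
Deposited TPM of the most counted transcript of each gene in each library, as a stack of the 6 binding proteins (left) and as bars for ligands and receptors (right), with both vertical axes starting at 0. Igfbp7 is the largest part of every stack, Igfbp5 takes 27.5% of the stack in the third PNX library, and Igf1 goes from about 3.10 TPM in each sham library to between 9.81 and 13.2 TPM in PNX.

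Markers of other cell types moved with the operation as well. The fibroblast list summed to 1847 to 1934 CPM in sham and 3404 to 3851 CPM in PNX. Of its 10 genes, 7 were higher and 2 lower at a blocked edgeR adjusted p under 0.05, which 11.5% of all genes passed as higher and 10.1% as lower. By sample means, the collagen genes Col1a1 and Col1a2 went from 153 to 828 and from 220 to 960 CPM. The 2 lower genes, Pdgfra and Inmt, went from 360 to 264 and from 636 to 252 CPM. In the macrophage list, 7 of the 8 genes analysed here were higher at the same threshold, among them C1qa, C1qb and C1qc, although its sum, led by Lyz2, overlapped at 2330 to 4202 and 3100 to 4176 CPM. Mesothelial genes, of which 7 of 8 were higher, summed to 260 to 531 CPM in sham and 453 to 1105 CPM in PNX. Their sum was highest in the later library of each group, as the macrophage sum was. Adipocyte genes summed to 44.1 to 69.7 and 68.7 to 72.7 CPM, with 4 of 6 tested genes higher and 1 lower. Adipoq was at 0 counts in the third sham library and Lep in all 3 sham libraries.

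Other lists were lower or little different. All 8 alveolar type 2 and all 6 airway genes were lower at that threshold, against 10.1% of all genes, and the sums were 5565 to 5971 against 2154 to 3599 CPM and 2523 to 4504 against 1168 to 1208 CPM. For alveolar type 1, 5 of 7 genes were lower and 1 higher. No smooth muscle or pericyte gene of 10 passed, with sums of 454 to 585 and 411 to 572 CPM. Of the 10 EC markers 1 passed, against 21.6% of all genes; this was Tek, which was lower, and the list median was −0.16 on the log2 scale. In ECs isolated with beads, more cells of a type and more RNA per cell cannot be told apart. The part of these cells in the levels of Igf1, Igfbp3 and the other IGF system genes was not tested.

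Other genes of the pathway were taken as 54 genes in 6 lists, of which 48 were tested. The other 6 genes (Ins1, Ins2, Insrr, Igfbp1, Igfbpl1 and Irs4) had too few counts, none above 0.182 CPM in any library. Without the block edgeR called 0 of the 48 (9 at an unadjusted p under 0.05), limma-voom 0 and DESeq2 3 (3.35% of all genes). With the replicate block 3 of the 48 were called, near the 5.12% of all genes; Adam12 and Pappa were higher and Adam28 lower, and all 3 encode proteases of binding proteins. At a blocked adjusted p under 0.05, 11 passed, 6 higher and 5 lower, which is near the 21.6% of all genes. In 21 genes the libraries did not overlap, 9 higher and 12 lower, against 36.5% of all genes (18.6% above and 17.9% below). The median blocked log2 fold change was −0.07.

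Of the 8 proteases of binding proteins and their inhibitors, 5 were higher and 1 lower at a blocked adjusted p under 0.05, against 11.5% higher and 10.1% lower of all genes, and the list median was 0.59 on the log2 scale. Adam12, a metalloprotease that cuts IGFBP3 and IGFBP5, was at 5.79, 5.998 and 6.18 CPM in sham and at 22.5, 21.8 and 31.6 CPM in PNX. The groups were far apart, and with the block Adam12 rose 4.32-fold (log2 2.11, SE 0.13, edgeR adjusted p = 7.7e-05; 0.074 without the block). Pappa, which releases IGF by cutting IGFBP4, was at 1.87, 1.67 and 1.41 CPM in sham and at 3.74, 3.97 and 6.47 CPM in PNX. Pappa rose 2.95-fold with the block (log2 1.56, SE 0.27, adjusted p = 0.0073; 0.17 without). Its relative Pappa2, which cuts IGFBP3 and IGFBP5, was at 0.276, 0.184 and 0.765 CPM in sham and at 3.64, 3.26 and 1.19 CPM in PNX (blocked log2 2.62, SE 0.68, adjusted p = 0.033), and its lowest PNX library was not far above its highest sham library. Adam28, which also cuts IGFBP3 and is made by lymphoid and epithelial cells, was at 12.2, 12.8 and 22.6 CPM in sham and at 6.22, 6.17 and 7.18 CPM in PNX. Adam28 fell 2.47-fold with the block (log2 −1.30, SE 0.16, adjusted p = 0.0019; 0.21 without).

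A further 2 proteases of this list were higher with the block and changed less. Htra1, a secreted serine protease, was 1.85-fold higher (edgeR adjusted p = 0.0011), and Adam9 was 1.23-fold higher (adjusted p = 0.042). The 2 inhibitors of PAPPA did not pass, with log2 fold changes of 0.10 for Stc1 and 0.30 for Stc2.

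Among receptor substrates and adaptors, 3 of 10 passed at 0.05 with the block, near the 21.6% of all genes. In 5 of the 10 the libraries did not overlap, against 36.5% of all genes. Grb10, an imprinted adaptor that restrains IGF1R and insulin receptor signaling, was at 92.0, 93.8 and 63.1 CPM in sham and at 148, 143 and 131 CPM in PNX, and rose 1.80-fold with the block (log2 0.85, SE 0.11, edgeR adjusted p = 0.0022). Its relative Grb14 went the other way, from 27.1, 29.1 and 21.9 CPM to 16.7, 16.7 and 13.7 CPM, and fell 1.64-fold (log2 −0.72, SE 0.09, adjusted p = 0.0024). Irs1, the docking protein that carries the receptor signal to PI3K, fell 1.49-fold (log2 −0.58, adjusted p = 0.0071).

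In the lists further from the ligands few genes passed. In PI3K, AKT and mTOR signaling 1 of 18 passed at 0.05, against 21.6% of all genes, while in 8 of the 18 the libraries did not overlap (2 higher and 6 lower), against 36.5% of all genes. The gene that passed was Foxo1, a transcription factor that AKT holds in check, which was at 69.7, 68.9 and 61.3 CPM in sham and at 53.3, 52.8 and 43.8 CPM in PNX (log2 −0.43, SE 0.08, edgeR adjusted p = 0.011). The highest of that list was Eif4ebp1, a translation repressor controlled by mTOR, at a log2 of 0.30 (adjusted p = 0.066). Of the 5 genes of growth hormone input, 1 passed at 0.05, near the 21.6% of all genes. It was Stat5b (log2 −0.28, edgeR adjusted p = 0.046), while Stat5a was at a log2 of 0.01. No gene passed among the 4 other ligands, receptors and carriers tested, against 21.6% of all genes. The lowest was Insr, the insulin receptor, at a log2 of −0.12. The highest was Igfals, the acid-labile subunit that holds IGF in large complexes in blood, at 0.95 and only 0.0990 to 0.295 CPM. None of the 3 IGF2 mRNA-binding proteins passed, against the same 21.6%, from Igf2bp3 at a log2 of −0.29 to Igf2bp1 at 0.07.

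**Figure D4:**
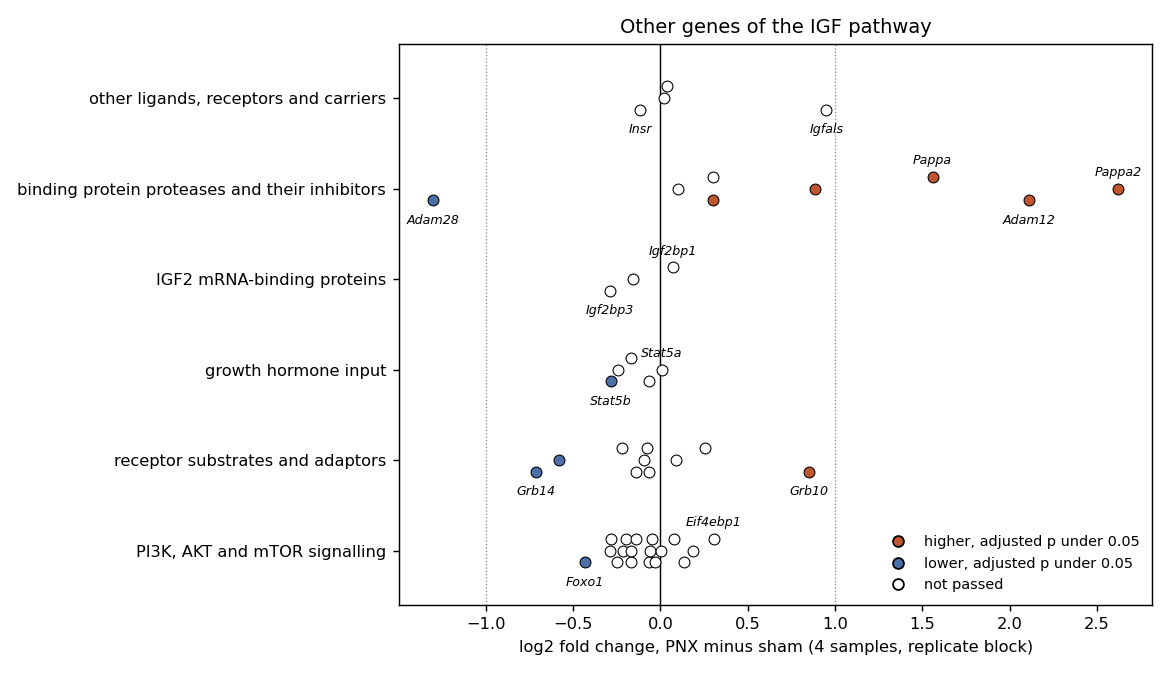
Blocked log2 fold change of PNX over sham (horizontal axis) for each of the 48 tested pathway genes, 1 point a gene, in 6 lists (rows; height within a row only separates points). Red and blue mark genes higher or lower at an adjusted p under 0.05 and white those that did not pass, and dotted lines mark a log2 fold change of 1; 6 of the 8 points in the protease row are coloured and 1 of 18 in the PI3K, AKT and mTOR row, with 21.6% of all genes passing that threshold.

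The genes whose levels over the 6 libraries followed Igf1 most closely, among 14120 genes with a mean of at least 1 CPM, were Maged2, Cd63, Loxl1, Mdk and Cd5l, with Pearson's r of log2 CPM of 0.998 to 1.00. Mdk encodes midkine, a heparin-binding growth factor, Loxl1 an enzyme that cross-links elastin, and Cd5l a protein secreted by macrophages. Cd5l was at 0.880, 0.750 and 1.18 CPM in sham and at 38.3, 37.1 and 23.5 CPM in PNX, a wider change than that of Igf1. For Igfbp3 the closest genes were Ubn2, Casz1, Sntb1, Fzd4 and Atp2a3, at r of 0.998 to 1.00. Fzd4, a receptor of the Wnt family used by retinal and other vessels, was at 149, 150 and 128 CPM in sham and at 87.0, 85.0 and 89.0 CPM in PNX. These correlations share libraries, deposit and depth and are given as a description of 6 points that fall in 2 groups.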

How the data were processed

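The authors prepared stranded mRNA libraries from mouse lung ECs, each described in the methods as a pool from 2 mice. The libraries were sequenced as read pairs and aligned to mm10, which is GRCm38, with STAR named in the submitters' processing notes. The sources used here do not give the counting rule or the annotation release. The authors deposited raw counts, FPKM and TPM for each RefSeq transcript. Here counts of a symbol were summed, and deposited TPM served to compare genes. FPKM values that the authors deposited gave transcript lengths only.

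Replicates 1 and 2 of each group were summed after a chi-square comparison of replicates over genes with at least 20 counts in the pair. PNX was compared with sham in 4 samples by edgeR 4.0.16 in R 4.3.3 (TMM, filterByExpr, glmQLFit, glmQLFTest, Benjamini-Hochberg over 16598 genes), without and with a replicate block. With 2 samples per group an exact permutation test of 1 gene cannot go below p = 0.333. Alternatives were DESeq2 1.42.0, limma-voom 3.58.1, other scalings and filters, the 6 libraries, each replicate left out and the most counted transcript. The labels pair the groups by deposit, and the later minus earlier difference of 14121 genes in sham went with the one in PNX at a Pearson's r of 0.752 and a Spearman's rho of 0.751. The standard error is the log2 fold change divided by the square root of F. The scripts were tested on simulated data.

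Members and gene lists were chosen with earlier results of these data known. Named pathway genes are those called with the block and the highest and lowest of each list. Htra1, Adam9, Irs1, Stc1, Stc2, Tek, Col1a1, Col1a2, Pdgfra and Inmt were named after their values were seen. For the genes with the highest and the lowest change, the 5 genes with the highest correlation were also named. Exact intervals are Clopper-Pearson at 95%, computed on how the counts divide between PNX and sham with library size allowed for, and cover counting error only. Positions and exons are from GENCODE vM21. Adgre1 and Siglecf were not analysed here.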

Additional observations from a re-analysis of the deposited data

Results flagged for a closer look

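For 4 genes the PNX libraries of the earlier deposit lay on one side of sham and that of the later deposit on the other. The later deposit has 1 library per group, and this difference between deposits was not tested. Igfbp2 had a log2 difference between PNX and sham of 0.51 in the earlier deposit and −0.91 in the later. For Igfbp4 these were −0.13 and 0.36, and for Igfbp6 −0.037 and 0.58. The counting interval of the earlier Igfbp6 ratio included 1. For Igf2bp3, an IGF2 mRNA-binding protein with sample means near or under 1 CPM, they were −0.43 and 0.010. Of all 16598 genes tested, 2644 (15.9%) met the same rule.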

How the results depend on the processing

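The count of IGF system genes called was 0 in the fit without block under DESeq2 size factors, upper-quartile or library size scaling, other filters on low counts, limma-voom, the most counted transcript or an adjusted p under 0.05. It was 2, Igf1 and Igfbp3 each time, with DESeq2, with the replicate block (edgeR, DESeq2, other scalings, limma-voom or the most counted transcript), with 6 libraries (edgeR, DESeq2 or the block) and with replicates 1 and 2 alone, and 4 with the block at an adjusted p under 0.05. Among all genes, the settings just named with 0 also called 0, and DESeq2 called 587. Blocked fits of 4 samples called 624 (DESeq2 size factors) to 921 (limma-voom), and 3584 at an adjusted p under 0.05. The 6-library fits called 409 in edgeR, 927 in DESeq2 and 1104 with the block, and replicates 1 and 2 alone called 1203. For pathway genes the count of 0 became 3 with DESeq2, the block, the block with limma-voom or the most counted transcript, and replicates 1 and 2 alone; 4 with the block in DESeq2, 6 libraries in DESeq2 and 6 libraries with the block; 2 with the block and DESeq2 size factors or library size; 1 with 6 libraries in edgeR; and 11 with the block at 0.05. Leaving out replicates gave 0 to 2 IGF system genes and 0 to 3 pathway genes. The lowest blocked count was 1 (Adam12), without PNX replicate 1; without sham replicate 1 or 2 Pappa was lost from the blocked calls. In 6 libraries, leaving out sham replicate 1 or 2 or PNX replicate 1 lost Igf1 and Igfbp3, and PNX replicate 2 lost Igfbp3. The first 3 of these fits called 0 of all genes and the last called 49, so the loss was not particular to Igf1 and Igfbp3. The cause was not tested. Leaving out replicate 3 within the block could not be fitted, since no residual degree of freedom remains; without it in the unblocked fits the lone sample is assumed to vary like the other group. The block fits by DESeq2, with another scaling and the alternatives on leaving out replicates were planned; those on the most counted transcript, limma-voom, 0.05 and leave-outs with the block were added after seeing the data.

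Igf1, Igf2, Igf1r, Igf2r and Igfbp3 kept their direction in every fit; the log2 fold change ran from 1.67 to 2.13 for Igf1 and from −1.71 to −1.22 for Igfbp3. Igfbp2 turned to −0.10 with the replicate block (edgeR, DESeq2 size factors or library size −0.097), −0.20 in DESeq2 with the block and −0.077 with the most counted transcript and the block, but was 0.15 with the block in limma-voom and 0.20 with the block in 6 libraries, and ran from −1.52 to 0.92 when replicates were left out. With replicates 1 and 2 alone Igfbp4 was −0.10 and Igfbp6 −0.011. Leaving out replicates gave −0.081 to 0.30 for Igfbp4, −0.68 to 1.78 for Igfbp5, −0.31 to 0.82 for Igfbp6, −0.074 to 0.58 for Igfbp7, −0.24 to 0.018 for Insr, −0.097 to 0.32 for Igf2bp1, −0.59 to 0.25 for Igf2bp3 and −0.26 to 0.29 for Stat5a. Stat5a was also −0.011 with upper-quartile scaling and −0.0021 with at least 10 counts in every library. The depth of the later libraries, 29526989 and 33374216 counts, limits genes under 1 CPM such as Igfals and Pappa2.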
